A study of Bos taurus with 3 samples.

Results

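The 78 genes described here encode heat shock proteins and their co-chaperones in the bovine mammary gland. They were chosen by name, from the last bracketed symbol of the gene description. The rule took symbols beginning with HSPA, HSPB, HSPD, HSPE, HSPH, HSP90, DNAJA, DNAJB, DNAJC or PFDN. It also took CCT or FKBP followed by a digit, and TCP1, STIP1, AHSA1 or a BAG gene. HSPA5 and HSP90B1, the main chaperones of the endoplasmic reticulum, were left out by the rule. The 78 genes stood among 9154 genes with tags in any of 3 digital gene expression libraries of Holstein cows in the second parity. The libraries were made from mammary biopsies taken at day −35 (the dry period), day −7 and day 3 relative to parturition, written −35 d, −7 d and +3 d. Each library was 1 pool of 6 cows, 18 cows in all, so there was no replicate at any time point. Stage I is −7 d compared with −35 d, and stage II is +3 d compared with −7 d.

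Chaperones of the cytosol work as a relay. HSP70 proteins bind stretches of unfolded chain in a cycle driven by ATP, which J-domain (DNAJ) proteins start and nucleotide exchange factors (BAG, HSPBP1 and the HSP110 proteins) end. HSP90 receives partly folded kinases and steroid hormone receptors, with FKBP4 and AHSA1 among its helpers, and in the mammary gland glucocorticoid, progesterone and their receptors are known to govern the start of milk secretion. Prefoldin hands new actin and tubulin to the ring-shaped chaperonin CCT. Small heat shock proteins hold unfolding proteins without ATP and are abundant in muscle-like cells, and milk proteins themselves fold in the endoplasmic reticulum, which has chaperones of its own.

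The label of a cytosolic group held for most but not all members. Of the 78 members 8 are known as proteins of the lumen of the endoplasmic reticulum (FKBP7, FKBP9, FKBP10, FKBP11, DNAJB11, DNAJC3, DNAJC10 and HSPA13) and 7 as mitochondrial proteins (HSPA9, HSPE1, DNAJA3, DNAJC11, DNAJC15, DNAJC19 and DNAJC30). DNAJB12, DNAJB14, DNAJC14, DNAJC16 and DNAJC18, counted here with the cytosolic members, are known as proteins of the membrane of the endoplasmic reticulum. HSPB11 is named IFT25 in the assembly ARS-UCD2.0 and is known as a protein of intraflagellar transport, not as a holding chaperone. The genes HSPD1, HSPA1A, STIP1 and CCT5 were not analysed here.

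The libraries held 5914422, 5593237 and 5845821 clean tags at −35 d, −7 d and +3 d. A tag is a read of 21 bases from a CATG site of a transcript, and TPM is a gene's tags in every 1000000 clean tags of the library, not divided by transcript length. The chaperone genes took 33470, 30270 and 20315 tags, or 0.566% (95% Wilson interval 0.560 to 0.572), 0.541% (0.535 to 0.547) and 0.348% (0.343 to 0.352) of the clean tags. By clean tag totals their summed level was thus nearly level between the dry period and −7 d and was lowest at +3 d. The sums were 5659, 5412 and 3475 TPM. On that scale the median log2 ratio of all genes averaging 5 TPM or more was −0.52 at +3 d against −35 d. No other scaling was applied to this sum. All intervals cover counting error only, not the spread between cows. The 5 genes with over 1% of a library's clean tags, all of milk proteins, took 0.348%, 4.13% and 22.6% of the clean tags, and they are part of the total that TPM is based on.

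HSPA8, the constitutive HSP70, HSP90AB1 and HSP90AA1 had the highest mean levels and together held 42.2%, 42.1% and 34.8% of the chaperone tags. The next 7 by mean level were HSPB1, PFDN5, HSPE1, FKBP1A, CCT2, TCP1 and CCT3, and the 10 together held 67.2%, 67.7% and 65.5%. At the other end 20 members averaged under 5 TPM, and 10 had 3 tags or fewer in at least 1 library. Those 10 were DNAJA2, DNAJB4, DNAJB13, DNAJC7, DNAJC19, HSPA2, HSPA1L, CCT6B, FKBP1B and FKBP6, for which no fold is given. Each library listed 76 of the 78, and 3 tags corresponded to 0.507, 0.536 and 0.513 TPM. Tags that match several genes had been left out of the counts, so the order of levels between genes also depends on how many of a gene's tags are its own.

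**Figure D1:**
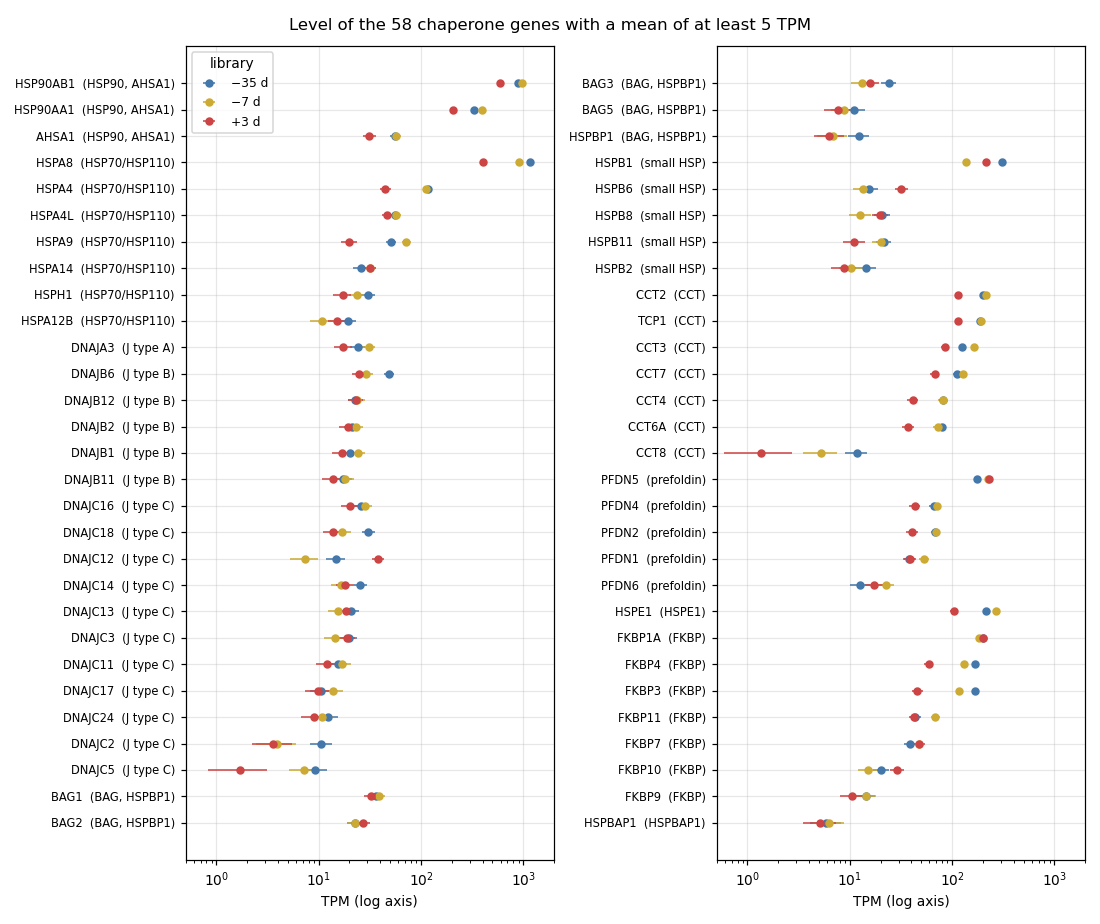
Level in TPM (log axis) of the 58 chaperone genes averaging 5 TPM or more, by family, in the −35 d, −7 d and +3 d libraries, with 95% Poisson intervals of the tag counts as bars. HSPA8 and HSP90AB1 lie farthest to the right in all 3 libraries, HSP90AA1 is passed by PFDN5 and HSPB1 at +3 d, and for HSPA8 the 3 points are apart at 1173, 913 and 405 TPM.

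In stage I few chaperone genes were called, and the 4 that were called were lower at −7 d. CCT8 (a chaperonin subunit), DNAJC12, DNAJC2 (a J-domain protein at the ribosome) and HSPB1 (the small heat shock protein HSP27) were downregulated, and no member was upregulated. A gene was called at FDR ≤ 0.001 in the Audic-Claverie exact test with a log2 ratio of at least 1 in size. The test compares the tags of 2 libraries, not the time points. The 4 of 77 members downregulated (5.19%) stand beside 6.45% of all 8967 genes tested (9.07% called in either direction), and the 0 upregulated beside 2.62%, while 36 members had an unadjusted p under 0.05 against 46.7% of all genes. The members' share was near that of all genes. At FDR ≤ 0.001 with any fold, 9 members were higher (11.7%, against 7.55% of all genes) and 11 lower (14.3%, against 14.9%). The median log2 ratio was 0.01 for the 58 members averaging 5 TPM or more and −0.16 for all such genes. Of these members 30 (51.7%) had a ratio above 0 and 28 (48.3%) below, beside 38.7% and 61.3% of all such genes. Under TMM scaling, which moved the median of all genes by 0.19, all 4 downward calls were lost and PFDN6 was called upregulated, while the calls among all genes went from 235 up and 578 down to 378 up and 350 down.

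In stage II, DNAJC12 and the small heat shock protein HSPB6 rose. HSPA8, HSPA4, HSPA9, HSPE1, FKBP3, FKBP4 and DNAJC5 were downregulated. These 7 downregulated genes were 9.09% of 77 members, beside 10.4% of all 8784 genes tested, and the 2 upregulated were 2.60%, beside 3.12%. At FDR ≤ 0.001 with any fold, 21 members were lower (27.3%, against 21.8% of all genes) and 4 were higher (5.19%, against 6.20%). The median log2 ratio was −0.43 over the 58 members and −0.34 over all genes of that level. Of the 58 members 15 (25.9%) had a ratio above 0 and 43 (74.1%) below, beside 30.3% and 69.7% of all such genes, and 40 members had an unadjusted p under 0.05, beside 49.5% of all genes. TMM scaling moved the median of all genes by 0.31. It ended the calls of HSPA8 and FKBP4 and added an upward call of FKBP10, while the calls among all genes went from 274 up and 915 down to 516 up and 430 down.

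At +3 d compared with −35 d, 47 of the 58 members (81%) had a ratio below 0, beside 77.2% of all genes of that level. Besides the 7 genes of stage II, CCT6A, CCT8, DNAJA2, DNAJC2 and DNAJC18 were downregulated, and DNAJC12 and HSPB6 were upregulated. The 12 downregulated were 15.4% of 78 members, beside 16.3% of all 8988 genes tested (18.6% called in either direction), and the 2 upregulated were 2.56%, beside 2.33%. The median log2 ratio was −0.50 over the 58 members and −0.52 over all genes of that level, and that of the members was −0.0013 with TMM scaling. With TMM scaling, which moved the median of all genes by 0.50, CCT8, DNAJC5, FKBP3, FKBP4, HSPA8, DNAJC12 and HSPB6 kept their calls, 7 calls were lost and FKBP10 was added as upregulated. The calls among all genes went from 209 up and 1463 down to 560 up and 444 down.

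These calls rest on counting error alone. When a biological coefficient of variation of 0.2 was assumed in edgeR's exact test, DNAJC12 in stage II and CCT8 at +3 d against −35 d were the 2 calls left among the members, and with 0.4 there were 0.

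The share of members called was thus close to the background in each comparison. For stage II the share downregulated is given here by level of abundance, on few members at each level. Of the 13 members averaging 100 TPM or more, 4 (30.8%) were downregulated in stage II, beside 15.6% of the 614 genes of that level, and the median log2 ratio was −0.91 beside −0.43. Of the 25 members between 20 and 100 TPM, 2 (8%) were downregulated, beside 14.1% of 2673 genes, with medians of −0.46 and −0.36. Another 2 of these 25 members were upregulated, beside 101 of the 2673 genes. Of the 20 members between 5 and 20 TPM, 1 (5%) was downregulated, beside 14.0% of 2615 genes, with medians of −0.24 and −0.30. TMM scaling ended the calls of HSPA8 and FKBP4, which are 2 of the 4 in the highest bin, and in stage I the share downregulated was highest in the lowest bin. The bins were set on the mean of the same libraries, and no test of the difference between members and other genes was made. The luminal epithelial markers, 8 of the 10 listed, summed to 1569, 1121 and 935 TPM with EPCAM the most abundant, and none was at 0. By clean tag totals 6 of the 8 were lower in stage I at FDR ≤ 0.001, beside 14.9% of all genes. ELF5 was higher in stage I at that threshold (271 to 353 TPM), as were 7.55% of all genes. At that threshold 2 of the 8 were higher and 2 lower in stage II by clean tag totals, and 4 and 1 with TMM scaling. In stage II ELF5 was downregulated (353 to 155 TPM), a call lost with TMM scaling, and MUC1 was upregulated (21.99 to 98.4 TPM). In such bulk tissue fewer cells of a type and less RNA per cell cannot be told apart, and the part of these markers in the chaperone values was not tested.

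**Figure D2:**
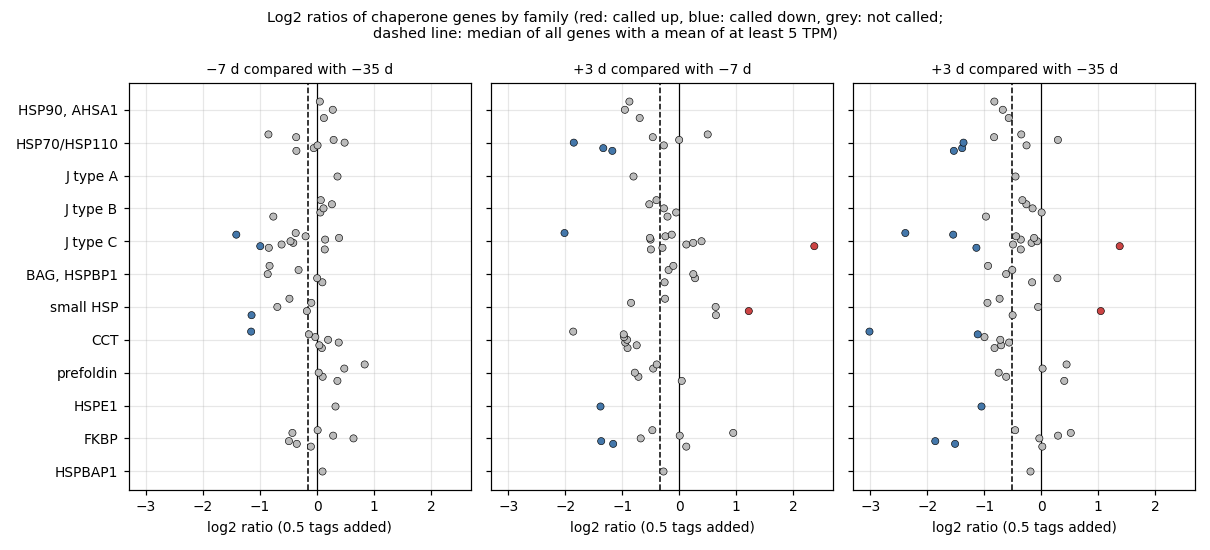
Log2 ratio (0.5 tags added to each count) of the 58 chaperone genes averaging 5 TPM or more in the 3 comparisons, 1 point per gene, by family. Red points were called up, blue points down and grey points not called, and the dashed line is the median of all genes of that level, at −0.16, −0.34 and −0.52. In stage II all 7 CCT subunits and the 3 genes of the HSP90 group lie to the left of that line.

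Both HSP90 genes were highest at −7 d and lowest at +3 d by clean tag totals. HSP90AB1, the constitutive form, had 888, 966 and 598 TPM at −35 d, −7 d and +3 d, highest at −7 d and lowest at +3 d. In stage I it was 1.09-fold higher (log2 ratio 0.12, 95% interval 0.07 to 0.18) at an adjusted p of 8.1e-05 by the Audic-Claverie test. In stage II it was 1.62-fold lower (log2 ratio −0.69, 95% interval −0.75 to −0.63). HSP90AA1, the stress-inducible form, had 328, 398 and 206 TPM. It was 1.21-fold higher in stage I (log2 ratio 0.28, 95% interval 0.19 to 0.37) and 1.93-fold lower in stage II (log2 ratio −0.95, 95% interval −1.05 to −0.85). Neither reached 2-fold, so neither was called. AHSA1, which speeds the ATPase of HSP90, had 55.5, 57.4 and 31.3 TPM. The 3 genes of the group were lower in stage II at FDR ≤ 0.001 under clean tag totals, as were 21.8% of all genes, and under TMM scaling, with a median log2 ratio of −0.87 and −0.56. Against −35 d all 3 were again lower at FDR ≤ 0.001 by clean tag totals, but none was with TMM scaling.

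In the HSP70 family HSPA8, HSPA4 and the mitochondrial HSPA9 were downregulated in stage II, and the other 7 members were not called. Of all genes tested 10.4% were downregulated, and with TMM scaling the call of HSPA8 was lost. HSPA8 had 1173, 913 and 405 TPM, a decline at each step. It was 1.28-fold lower in stage I (log2 ratio −0.36, 95% interval −0.41 to −0.31) and 2.25-fold lower in stage II (log2 ratio −1.17, 95% interval −1.24 to −1.10). HSPA4, an HSP110 protein that acts as exchange factor for HSP70, had 117, 112 and 44.6 TPM. It was level before parturition and 2.52-fold lower in stage II (log2 ratio −1.33, 95% interval −1.55 to −1.12). Its relative HSPH1 had 30.4, 23.6 and 17.1 TPM and was lower at +3 d than at −35 d at FDR ≤ 0.001 without reaching 2-fold. The log2 ratio of HSPH1 between these libraries was −0.83 by clean tag totals and −0.33 with TMM scaling. HSPA4L had 56.3, 56.7 and 47.0 TPM and HSPA14, a ribosome-associated form, 25.7, 31.5 and 31.5 TPM, and neither passed the test in any comparison by clean tag totals. With TMM scaling HSPA14 had a log2 ratio of 0.79 at +3 d against −35 d. HSPA12B had 19.4, 10.7 and 15.2 TPM and was 1.81-fold lower in stage I at an adjusted p of 0.00065 in the Audic-Claverie test, which did not pass with TMM scaling. HSPA13, HSPA2 and HSPA1L stayed under 7 TPM in all 3 libraries.

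The relation of HSPA8 to HSP90AB1 turned over between the libraries. A ratio of tags within a library does not depend on scaling, and the pairs given here were chosen after their values were seen. There were 1.32 HSPA8 tags per HSP90AB1 tag at −35 d (95% interval 1.27 to 1.37), 0.945 at −7 d (0.910 to 0.982) and 0.678 at +3 d (0.643 to 0.714). The intervals of the 3 libraries did not overlap. HSP90AB1 and HSP90AA1 stayed closer to each other, with 2.704, 2.43 and 2.91 tags of the former per tag of the latter.

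The mitochondrial pair HSPA9 and HSPE1 was highest at −7 d and lowest at +3 d. HSPA9, the mitochondrial HSP70 that pulls proteins into the matrix, had 51.2, 71.7 and 19.8 TPM. It was 1.40-fold higher in stage I (log2 ratio 0.48, 95% interval 0.27 to 0.70) and then 3.61-fold lower (log2 ratio −1.85, 95% interval −2.16 to −1.55). HSPE1, the lid of the mitochondrial chaperonin, had 216, 270.3 and 103 TPM. It was 1.25-fold higher in stage I (log2 ratio 0.32, 95% interval 0.21 to 0.43) and 2.62-fold lower in stage II (log2 ratio −1.39, 95% interval −1.53 to −1.25). Both stage II calls held under TMM scaling. DNAJA3, the J-domain partner in the matrix, had 24.2, 30.8 and 17.4 TPM, the same order of libraries by clean tag totals. With TMM scaling its log2 ratio of +3 d to −35 d was 0.03, so +3 d was not its lowest library. DNAJA3 was lower in stage II at an adjusted p of 2.0e-05 in the Audic-Claverie test without reaching 2-fold. That result did not pass FDR ≤ 0.001 with TMM scaling. Of the other 4 mitochondrial members DNAJC11 had the highest level, with 15.4, 16.98 and 11.97 TPM, and none passed the test. In ARS-UCD2.0 the neighbour of HSPE1 is HSPD1, the gene of the chaperonin barrel, which was not analysed here.

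**Figure D3:**
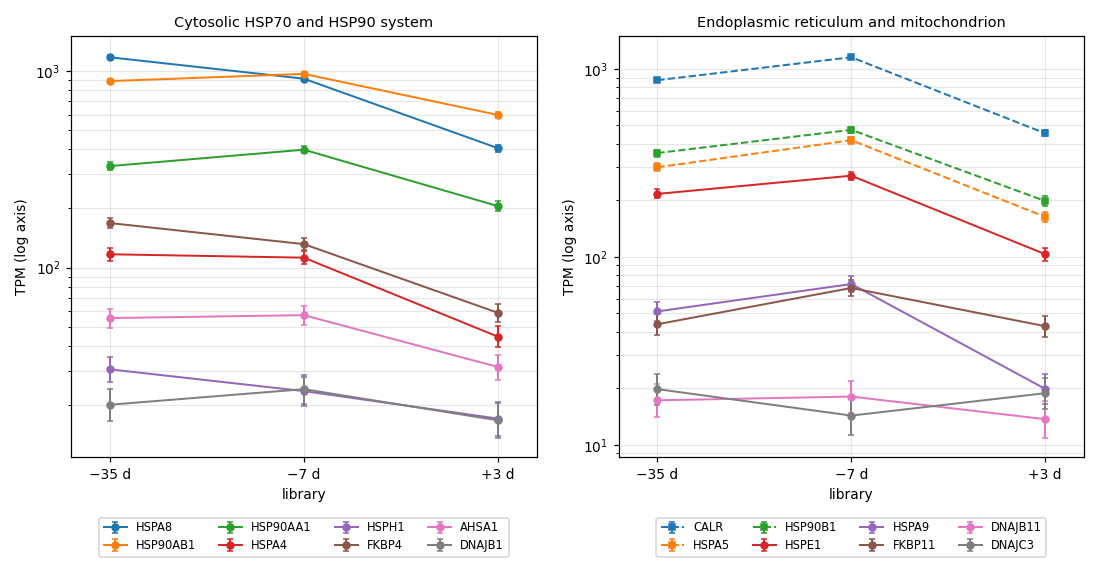
Level in TPM (log axis) in the 3 libraries of 8 genes of the cytosolic HSP70 and HSP90 system (left) and of 8 chaperones of the endoplasmic reticulum and mitochondrion (right), with 95% Poisson intervals as bars and dashed lines for the 3 genes outside the naming rule. HSPA8 falls from above HSP90AB1 at −35 d (1173 and 888 TPM) to below it at +3 d (405 and 598 TPM), and HSPA9 and HSPE1 peak at −7 d.

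The 30 J-domain proteins, which choose the clients of HSP70, were of low level. Their summed level was 380.3, 319 and 294 TPM, and the most abundant, DNAJB6, which keeps aggregation-prone proteins soluble, had 49.0, 28.8 and 24.98 TPM. DNAJB6 was 1.70-fold lower in stage I (log2 ratio −0.77, 95% interval −1.06 to −0.49), short of a call. In stage II 1 of the 30 was upregulated and 1 downregulated, beside 3.12% and 10.4% of all genes. The median log2 ratio of type B proteins was −0.27 in stage II and turned to 0.04 with TMM scaling, and that of type C proteins turned from −0.24 to 0.07, so neither had a direction. The heat-inducible DNAJB1 had 20.1, 24.1 and 16.8 TPM, and DNAJB12 had 22.8, 23.8 and 22.9 TPM.

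DNAJC12, known as the co-chaperone of the aromatic amino acid hydroxylases, had the highest stage II ratio of the 58 members of at least 5 TPM. It had 87, 41 and 224 tags, or 14.7, 7.33 and 38.3 TPM, lowest at −7 d and highest at +3 d. It was 2.01-fold lower in stage I (log2 ratio −0.996, 95% interval −1.58 to −0.45), at the edge of the call, which was lost under each other scaling and when 0.5 tags were added to the counts. In stage II it was 5.23-fold higher (log2 ratio 2.37, 95% interval 1.90 to 2.90). Against −35 d it was 2.60-fold higher (log2 ratio 1.38, 95% interval 1.02 to 1.76).

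Other J-domain proteins were lower. DNAJC5, the cysteine string protein of secretory vesicles, had 55, 40 and 10 tags, or 9.30, 7.15 and 1.71 TPM. It was 4.18-fold lower in stage II (log2 ratio −2.01, 95% interval −3.23 to −1.04), the lowest ratio of any member of at least 5 TPM in that comparison. DNAJC2 had 63, 22 and 21 tags and was 2.71-fold lower in stage I (log2 ratio −1.42, 95% interval −2.21 to −0.72), with little difference between −7 d and +3 d. DNAJC18 had 30.6, 16.98 and 13.9 TPM and was 2.21-fold lower at +3 d than at −35 d. DNAJA2, a major cytosolic partner of HSPA8, had 26, 12 and 3 tags, and its log2 ratio of +3 d to −35 d was −2.90 with a 95% interval of −5.47 to −1.39. The calls of DNAJC2, DNAJC18 and DNAJA2 against −35 d were lost with TMM scaling, where their log2 ratios were −1.05, −0.64 and −2.41. The most abundant type C protein, DNAJC16, had 25.7, 28.2 and 20.01 TPM and was not called.

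None of the 6 nucleotide exchange factors of the BAG group was called, beside 9.07%, 13.5% and 18.6% of all genes called in stage I, in stage II and at +3 d against −35 d. BAG1, the most abundant of the 6, had 36.4, 38.8 and 32.5 TPM. BAG3, which works with HSPB8 in clearing damaged filaments of muscle-like cells, had 24.2, 13.2 and 15.7 TPM and was 1.83-fold lower in stage I (log2 ratio −0.87, 95% interval −1.29 to −0.46). HSPBP1 had 12.2, 6.79 and 6.33 TPM. BAG2, which holds back the ubiquitin ligase STUB1, had 22.5, 22.5 and 27.4 TPM.

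Most subunits of the chaperonin CCT were lower at +3 d than at −7 d. CCT2, the most abundant, had 203, 215 and 115 TPM, level before parturition and 1.87-fold lower in stage II (log2 ratio −0.91, 95% interval −1.04 to −0.77). TCP1 had 186, 192 and 114 TPM and CCT3 126, 164 and 85.4 TPM. CCT7 had 112, 128 and 67.7 TPM, CCT4 82.3, 80.6 and 41.2 TPM and CCT6A 80.1, 72.6 and 36.9 TPM. In stage II the log2 ratios of these 6 subunits lay between −0.97 and −0.74. All 6 were lower at FDR ≤ 0.001 under clean tag totals and under TMM scaling, yet none reached 2-fold. Lower at that threshold by clean tag totals were 21.8% of all genes, and 492 of the 614 genes averaging 100 TPM or more passed it in either direction. At −7 d none of the 6 was lower than at −35 d at that threshold, and CCT3 was 1.302-fold higher (log2 ratio 0.38, 95% interval 0.24 to 0.52). With TMM scaling 4 of the 8 CCT genes were higher at −7 d at FDR ≤ 0.001. Against −35 d, 7 of the 8 were lower at +3 d at that threshold by clean tag totals, beside 28.9% of all genes, and 4 with TMM scaling.

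CCT8, the theta subunit of the same ring, did not follow them. It had 69, 29 and 8 tags, or 11.7, 5.18 and 1.37 TPM, a decline at each step. It was 2.25-fold lower in stage I (log2 ratio −1.16, 95% interval −1.85 to −0.52) and 8.52-fold lower at +3 d than at −35 d (log2 ratio −3.01, 95% interval −4.36 to −2.03). In stage II its log2 ratio was −1.86 (95% interval −3.26 to −0.76) with an adjusted p of 0.00101 in the Audic-Claverie test, just over the threshold. There were 16.0 TCP1 tags per CCT8 tag at −35 d (95% interval 12.5 to 20.7), 37.0 at −7 d (25.6 to 55.5) and 83.6 at +3 d (42.2 to 194.5). The stage I call of CCT8 was lost under each other scaling, and that against −35 d was kept. CCT6B, a form known from testis, had 0, 5 and 4 tags.

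Of the prefoldin subunits PFDN2 and PFDN4 were lower in stage II at FDR ≤ 0.001. PFDN1 had a stage II log2 ratio of −0.46 with an adjusted p of 0.0011 in the Audic-Claverie test, just over the threshold. PFDN6, at −0.39, and PFDN5, at 0.05, did not pass it either. Lower at that threshold by clean tag totals were 21.8% of all genes. With TMM scaling 1 of the 5 prefoldin subunits was lower and 1 higher at that threshold. PFDN5, which also binds the transcription factor MYC, had 175, 225 and 232 TPM, 1.28-fold higher in stage I (log2 ratio 0.36, 95% interval 0.24 to 0.48). By clean tag totals PFDN5 had nearly the same level at −7 d and +3 d, while its stage II log2 ratio was 0.35 with TMM scaling. PFDN2 had 68.1, 69.5 and 40.5 TPM and was 1.72-fold lower in stage II (log2 ratio −0.78, 95% interval −1.02 to −0.54). PFDN4 had 66.1, 70.8 and 43.1 TPM. PFDN1 had 38.2, 53.3 and 38.8 TPM, highest at −7 d. PFDN6 had 12.7, 22.7 and 17.3 TPM and was 1.79-fold higher in stage I (log2 ratio 0.84, 95% interval 0.42 to 1.27), the highest of the 58 members of at least 5 TPM in that comparison. The remaining subunit, VBP1, which the naming rule does not cover, had 10.1, 16.3 and 6.16 TPM and was 2.64-fold lower in stage II, a call that TMM scaling kept. There were 2.57 PFDN5 tags per PFDN2 tag at −35 d (95% interval 2.29 to 2.89), 3.23 at −7 d (2.88 to 3.63) and 5.72 at +3 d (4.98 to 6.60). Prefoldin as a group had a median log2 ratio of 0.36 in stage I, beside −0.16 for all genes averaging 5 TPM or more. All 5 ratios were above 0, beside 38.7% of all such genes. With TMM scaling the 2 medians were 0.55 and 0.03.

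**Figure D4:**
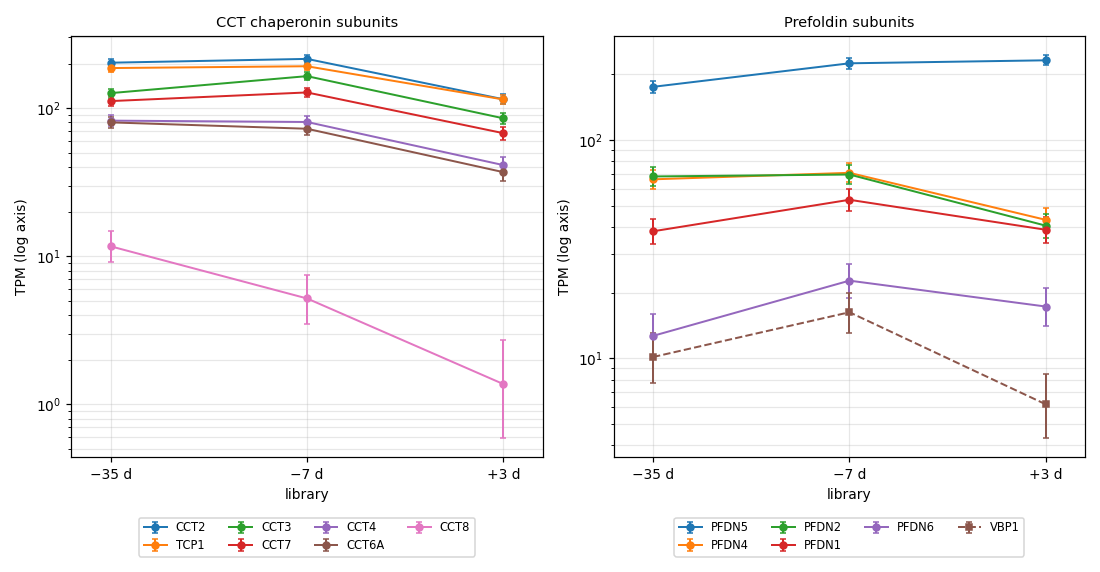
Level in TPM (log axis) in the 3 libraries of 7 subunits of the CCT chaperonin (left) and of 6 prefoldin subunits (right), with 95% Poisson intervals as bars and a dashed line for VBP1, which lies outside the naming rule. The other 6 CCT lines run nearly parallel with their lowest point at +3 d, CCT8 falls from 11.7 to 1.37 TPM, and PFDN5 is the prefoldin line that is not lower at +3 d than at −7 d, by clean tag totals.

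The FKBP proteins, prolyl isomerases that bind FK506, went different ways. FKBP1A, the small cytosolic FKBP12, had 199.5, 185 and 202 TPM and did not pass the test in any comparison by clean tag totals, while its stage II log2 ratio was 0.43 with TMM scaling. FKBP4, the partner of HSP90 on steroid receptors, had 169, 132 and 59.0 TPM, lower at each step. It was 1.28-fold lower in stage I (log2 ratio −0.36, 95% interval −0.49 to −0.22) and 2.23-fold lower in stage II (log2 ratio −1.16, 95% interval −1.35 to −0.97). FKBP3, a nuclear FKBP, had 166, 118 and 45.7 TPM. It was 1.41-fold lower in stage I (log2 ratio −0.49, 95% interval −0.64 to −0.35) and 2.58-fold lower in stage II (log2 ratio −1.37, 95% interval −1.58 to −1.16). At −35 d the 3 genes were close in level, and at +3 d FKBP1A stood far above the other two. There were 1.18 FKBP1A tags per FKBP4 tag at −35 d (95% interval 1.09 to 1.29), 1.41 at −7 d (1.28 to 1.55) and 3.42 at +3 d (3.03 to 3.87).

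The FKBP proteins of the endoplasmic reticulum differed from one another. FKBP11, which is known from secretory cells, had 43.8, 68.3 and 42.8 TPM, 1.56-fold higher at −7 d than at −35 d (log2 ratio 0.64, 95% interval 0.41 to 0.87). It was then 1.60-fold lower in stage II (log2 ratio −0.67, 95% interval −0.91 to −0.44), with a log2 ratio of −0.37 under TMM scaling. FKBP10, a chaperone of collagen, had 20.3, 15.02 and 29.1 TPM. In stage II it was 1.94-fold higher (log2 ratio 0.95, 95% interval 0.57 to 1.35), and it was called under each other scaling. FKBP7 had 39.1, 47.6 and 47.9 TPM and FKBP9 had 14.4, 14.5 and 10.4 TPM. The fibroblast markers, 6 of the 8 listed with COL1A1 the most abundant and none at 0, summed to 7646, 5736 and 8698 TPM. COL1A1 and COL1A2 had the order of libraries of FKBP10, COL3A1, DCN and FBN1 were highest at −35 d, and LUM was lowest there, all by clean tag totals. The TMM shift of 0.50 puts COL3A1 and FBN1 higher at +3 d than at −35 d. Their part in its value was not tested.

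HSPB1 and HSPB8 were lowest at −7 d and HSPB11 at +3 d, while the lowest library of HSPB6 and of HSPB2 depended on the scaling. HSPB1 had 306, 138 and 216 TPM. It was 2.22-fold lower in stage I (log2 ratio −1.15, 95% interval −1.27 to −1.03) and 1.56-fold higher in stage II (log2 ratio 0.65, 95% interval 0.52 to 0.78). HSPB6, the HSP20 of smooth muscle, had 15.4, 13.6 and 31.8 TPM, level before parturition and 2.34-fold higher in stage II (log2 ratio 1.22, 95% interval 0.84 to 1.63). HSPB8 had 20.6, 12.7 and 19.8 TPM. HSPB2 had 14.5, 10.4 and 8.72 TPM, with a stage II log2 ratio that turned to 0.06 with TMM scaling, and HSPB11 21.5, 20.02 and 11.1 TPM. CRYAB (alpha-B crystallin), the neighbour of HSPB2 in ARS-UCD2.0 and outside the naming rule, had 102, 61.9 and 51.7 TPM, lower at FDR ≤ 0.001 in stage I without reaching 2-fold.

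HSPB1 and HSPB6 therefore did not move in step. There were 19.9 HSPB1 tags per HSPB6 tag at −35 d (95% interval 16.1 to 24.8), 10.1 at −7 d (8.01 to 13.02) and 6.78 at +3 d (5.81 to 7.95). The log2 ratio of HSPB1 between +3 d and −35 d was −0.50 by clean tag totals, −0.0049 with TMM and 0.01 with DESeq2 size factors, so it had no direction that scaling did not set. The markers of smooth muscle and myoepithelium, all 10 of the list with TAGLN the most abundant, summed to 900.2, 551 and 1145 TPM. By clean tag totals TAGLN, MYH11, CNN1 and SYNPO2 had the order of libraries of HSPB6, DES, MYLK and OXTR were lowest at −35 d, and ACTA2, with 185, 83.5 and 160.3 TPM, was highest at −35 d, which the TMM shift of 0.50 turns to +3 d. Of these 10 genes CNN1, DES, OXTR and TAGLN were upregulated in stage II, beside 3.12% of all genes, and SYNPO2 was at 0 tags at −7 d. KRT5, a basal keratin, was lowest at −7 d like ACTA2, with 159.8, 41.1 and 62.1 TPM. KRT14, another basal keratin, did not pass the test in stage I or stage II, with 59.7, 57.9 and 51.3 TPM. The part of these cells in the values of HSPB1 and HSPB6 was not tested.

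**Figure D5:**
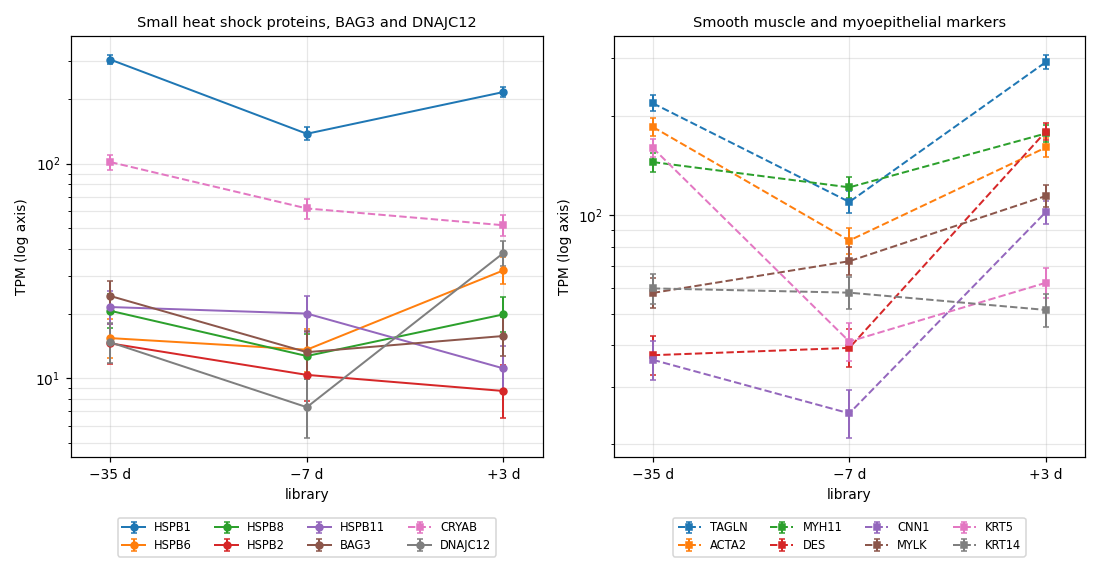
Level in TPM (log axis) in the 3 libraries of the small heat shock proteins with BAG3 and DNAJC12 (left, with a dashed line for CRYAB, which lies outside the naming rule) and of 8 markers of smooth muscle and myoepithelium (right), with 95% Poisson intervals as bars. HSPB6 and DNAJC12 are highest at +3 d, at 31.8 and 38.3 TPM, and so are TAGLN, MYH11, DES, CNN1 and MYLK on the right.

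Partners of these machines that the naming rule does not cover were described from fixed lists. Beside them, 3.12% of all genes tested were upregulated and 10.4% downregulated in stage II. Downregulated in stage I were 6.45% of all genes, and at +3 d against −35 d 16.3%. Of 15 further genes of the HSP90 machine, 0 were upregulated in stage II and 2 downregulated, namely CHORDC1 (65.4 to 31.0 TPM) and RUVBL1 (26.1 to 11.8 TPM). Its most abundant gene was PTGES3, the co-chaperone p23, with 279, 213 and 150.4 TPM. Of 9 HSP70 regulators 0 were upregulated and 2 downregulated, GAK (275 to 127 TPM) and SGTA (51.3 to 25.3 TPM), and the most abundant was ST13 with 243, 229 and 188 TPM. All 4 of these calls were lost with TMM scaling. Of 12 cofactors of the chaperonin and of tubulin folding, 0 were upregulated and 3 downregulated (PDCL, UXT and VBP1), and with TMM scaling VBP1 alone was called. In stage I ARL2 was the single call of the 3 lists, lower from 30.1 to 14.8 TPM, and it too was lost with TMM scaling. At +3 d against −35 d SGTA among the HSP70 regulators and 6 chaperonin cofactors (ARL2, PDCL, PDRG1, TBCA, TBCC and TXNDC9) were downregulated, of which PDRG1 and TXNDC9 kept their calls with TMM scaling. TBCC, which acts in tubulin folding, was the most abundant of the cofactors with 62.6, 36.7 and 29.6 TPM.

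HSF1, the transcription factor that drives heat shock genes, had 45.3, 48.6 and 24.1 TPM and was 2.02-fold lower in stage II, a call lost with TMM scaling. HSF2 had 22.5, 25.4 and 18.8 TPM, and HSBP1, an inhibitor of HSF1, had 72.9, 71.5 and 42.4 TPM. HSF1 was the single call among the 4 genes of that list in the 3 comparisons.

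Among the chaperones of the endoplasmic reticulum outside the rule, CALR, HSPA5 and HSP90B1 were highest at −7 d and lowest at +3 d, as HSPA9 and HSPE1 were, while P4HB and PPIB, the next in mean level after CALR, were highest at −35 d by clean tag totals. HSPA5 (BiP) had 299.6, 418 and 163 TPM, and HSP90B1 (GRP94) had 357, 474 and 198 TPM. HSPA5 was 1.39-fold higher in stage I and 2.56-fold lower in stage II, and HSP90B1 1.33-fold higher and 2.39-fold lower. CALR, the most abundant of the list, had 871, 1154 and 455 TPM. P4HB, a disulfide isomerase, had 543, 452 and 198 TPM. Of the 15 genes 8 were downregulated in stage II and 0 upregulated, beside 10.4% and 3.12% of all genes. With TMM scaling 3 of the 15 were downregulated (CALR, HSPA5 and SDF2L1). In stage I none was called by clean tag totals, and SDF2L1 was called upregulated with TMM scaling. At +3 d against −35 d ERP29, P4HB and TXNDC5 were downregulated, and none of the list was called with TMM scaling. There were 3.92 HSPA8 tags per HSPA5 tag at −35 d (95% interval 3.72 to 4.13), 2.19 at −7 d (2.08 to 2.30) and 2.48 at +3 d (2.30 to 2.68). In the same libraries the 6 milk protein genes summed to 3488, 41525 and 231338 TPM. The 6 members of the lumen with at least 5 TPM had a stage II median log2 ratio of −0.19, beside −0.34 for all genes of that level. None of the 8 lumenal members was called in stage II by clean tag totals, beside 13.5% of all genes tested.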

How the data were processed

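Mammary biopsies of 18 cows were pooled into 3 libraries, 1 per time point. The authors removed reads with adaptors, unknown bases or a wrong length and tags with a single copy, and matched the 21-base tags (CATG and 17 bases) to tag sequences of UMD 3.1 transcripts with at most 1 mismatch, leaving out tags of several genes. The aligner was not given in the sources used here. The deposited counts are unambiguous clean tags per gene, and the TPM values deposited by the authors are tags in every 1000000 clean tags of the library. TPM recomputed from the counts differed from the deposited values by at most 0.005. A table of distinct tags, whose deposited counts are copies per tag, gave the clean tag totals, and genes not listed in a library were given 0 tags. Groups were taken from the sample labels.

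Each pair of libraries was compared over all genes with the Audic-Claverie exact test (two-sided) on the tag counts and Benjamini-Hochberg adjustment. A gene was called at FDR ≤ 0.001 and a log2 ratio of at least 1 in size, with 0 TPM set to 0.01. Printed log2 ratios have 0.5 tags added to each count, and their 95% intervals, like the Poisson and Wilson intervals, cover counting error only. Medians cover genes averaging 5 TPM or more. A member with 3 tags or fewer in a library was given no fold, and for DNAJA2 a log2 ratio with its interval is given. The test was checked on simulated data. With 1 library per time point there was no replicate check.

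The members, the gene lists and the tests were chosen with earlier results of these data known. Named were all members called in any comparison, the most abundant of each family, the 3 highest and 3 lowest ratios per comparison, and called or most abundant genes of the lists, with others added after their values were seen. Lists covered the HSP90 machine, HSP70 regulators, chaperonin cofactors, small heat shock proteins, heat shock factors, cyclophilins, endoplasmic reticulum chaperones, immediate early genes, milk proteins and cell type markers. Symbols were matched to RefSeq ARS-UCD2.0, in which 76 members were found. Alternatives were TMM factors (edgeR 4.0.16), DESeq2 1.42.0 size factors, totals without genes over 1% of clean tags, Fisher's exact test, a BCV (biological coefficient of variation) set to 0.2 or 0.4 in the exact test of edgeR, a 3-fold threshold, other filters and added tags. Scaling of family medians, of every member and of the lists was added after seeing the data. Tests ran in scipy 1.17.1, tables in pandas 2.3.3 under Python 3.11.15, and scaling in R 4.3.3. A deposited summary file was not used, and 1 result of the lists is not reported here.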

Additional observations from a re-analysis of the deposited data

How the results depend on the processing

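No paired analysis was possible because each time point had 1 library. In stage I, TMM and DESeq2 size factors each gave 1 member called up and 0 down, and totals without genes over 1% of clean tags gave 2 down. The number called down was 0 with an assumed BCV of 0.2, with 0.4 and at 3-fold. In stage II a BCV of 0.2 gave 1 up and 0 down, a BCV of 0.4 gave 0 and 0, and a 3-fold threshold gave 1 and 2. At +3 d against −35 d, the number called down was 5 with TMM, 4 with DESeq2 size factors, 1 with a BCV of 0.2, 0 with 0.4 and 4 at 3-fold, and the number called up was 0 under each of the last 3. The members' median log2 ratio was 0.20 with TMM and 0.20 with DESeq2 size factors in stage I. In stage II it was −0.12 with TMM, −0.10 with DESeq2 size factors and −0.12 without genes over 1%, and at +3 d against −35 d −0.0013, 0.017 and −0.13. The log2 ratio of HSPB1 at +3 d against −35 d turned to 0.013 with DESeq2 size factors. Fisher's exact test changed no call of a member. Adding 0.5 tags ended the stage I call of DNAJC12, and a mean of at least 5 TPM added CCT8 in stage II and left out DNAJA2. Genes under 5 TPM had too few tags for small differences to be detectable.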

Other observations

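Immediate early genes, which respond quickly to growth and stress signals, were measured for 12 genes and were not part of the chaperone comparisons. JUN, the most abundant, had 96.5, 53.3 and 57.8 TPM at −35 d, −7 d and +3 d. In stage I JUNB and KLF6 were downregulated, and in stage II ATF3 (3.75 to 16.4 TPM), JUNB (7.69 to 18.3 TPM) and KLF6 (6.08 to 13.2 TPM) were upregulated while MYC (48.1 to 13.7 TPM) was downregulated, all with TMM scaling too. At +3 d against −35 d DUSP1, EGR1 and MYC were downregulated, and with TMM scaling MYC was the one of these that kept its call. The cyclophilins, the other family of prolyl isomerases, had no call among the 10 listed genes in any comparison. Of all genes 9.07%, 13.5% and 18.6% were called in stage I, in stage II and at +3 d against −35 d. PPIB was the most abundant at 391, 347 and 323 TPM. At FDR ≤ 0.001 without reaching 2-fold, PPIF was lower and PPIC higher in stage II, and PPIB was lower in the other comparisons.

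Of 8 macrophage genes CD163, CD68 and CSF1R were downregulated in stage I and CD14, CD163 and CSF1R upregulated in stage II, and C1QB, the most abundant, had 104.8, 99.2 and 196 TPM. Of 11 T cell genes CD3G, CD8B and LCK were downregulated in stage I and CD8A upregulated in stage II. Of 5 neutrophil genes MMP9 was downregulated in stage I, of 6 adipocyte genes PLIN1 was downregulated in stage I (23.8 to 11.3 TPM, a call lost with TMM scaling) and FABP4 upregulated in stage II (91.4 to 244 TPM), and of 7 endothelial genes CLDN5 (19.7 to 43.8 TPM) was upregulated in stage II. Erythrocyte genes were near the limit of counting, with HBB at 0 tags at −7 d and +3 d. Of all genes tested, 6.45% were downregulated in stage I and 3.12% upregulated in stage II. The relation of these cell types to the chaperone values was not tested.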
